A study of Mus musculus with 12 samples.

Results

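The genes described here encode secreted chemokines and cytokines, a scavenging chemokine receptor and a pair of inhibitors that nuclear factor kappa B (NF-kB) itself switches on. They are Cxcl1, Cxcl5, Ccl2, Ccl7, Cxcl12, Ackr3, Il6, Lif, Nfkbia and Tnfaip3, 10 of the 12393 genes with a symbol of their own on the arrays. All probe sets annotated to exactly 1 of these symbols were taken, which gave 15 of the 22626 tested probe sets. Cxcl12 and Lif had 2 probe sets each and Nfkbia had 4, and the other genes had 1. Where a single value stands for a gene, it comes from the probe set with the highest mean over all arrays. The genes were chosen by their names with earlier results of these arrays known, among them differences between replicate number 3 and numbers 1 and 2 and the rotenone difference of Lif. The difference of the members between number 3 and numbers 1 and 2 is therefore a description without a test. Whether their rotenone or genotype difference changed with the number was tested, on the same arrays that were known when the genes were chosen, so these tests are not independent of that choice.

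RNA was measured in primary mouse embryonic fibroblasts at passage 4, that is, cells grown from embryos that had not been made into a line. There were 4 groups of 3 arrays: HtrA2 knockout (KO) cells given 1 µM rotenone for 4 h, KO cells given vehicle for the same time, wild-type (WT) cells given rotenone, and WT cells given vehicle. HtrA2, also called Omi, is a protease that sits between the mitochondrial membranes, and rotenone blocks respiratory complex I. The study asked which genes respond differently to rotenone when HtrA2 is missing. In every group the replicates carry the numbers 1, 2 and 3. The labels do not say how many embryos or litters gave the cells, nor which part of Htra2 was deleted, so p-values measure only the spread between these arrays, which may be technical.

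NF-kB is held in the cytoplasm by inhibitor proteins until kinases mark them for destruction, after which it enters the nucleus and switches on inflammatory genes. Fibroblasts answer cytokines, bacterial products and damage this way, and release chemokines that call neutrophils and monocytes. Among the genes switched on are the inhibitors themselves, which close the loop and limit the response.

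The stretches of DNA just before the transcription start were read for the members that had an entry in the RefSeq promoter table of assembly GRCm38.p6. There were entries for 7 of the 10 members, with 8 starts in all. Cxcl5, Ccl2 and Ccl7 had none and are named only. The 250 bases before each start were searched on both strands for the published NF-kB consensus, named here without its letters, and 4 of the 7 members held a match. The same consensus was found in 3.90% of all 32851 promoter windows of that length. For these 4 genes the windows with a match are printed 5′ to 3′ on the gene's own strand, with the consensus matches in capitals. They are shown because they belong to 3 genes that stood high on the arrays numbered 3 and to 1, Tnfaip3, that did not. They lie at chr5:90890995-90891244 (+) for Cxcl1, chr5:30012864-30013113 (+) for Il6, chr12:55492648-55492897 (-) for Nfkbia and chr10:19015411-19015660 (-) for Tnfaip3.
Cxcl1: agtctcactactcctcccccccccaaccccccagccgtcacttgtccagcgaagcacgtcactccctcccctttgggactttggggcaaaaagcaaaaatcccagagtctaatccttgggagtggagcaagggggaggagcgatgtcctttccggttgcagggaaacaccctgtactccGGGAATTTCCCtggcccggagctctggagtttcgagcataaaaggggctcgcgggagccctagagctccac
Il6: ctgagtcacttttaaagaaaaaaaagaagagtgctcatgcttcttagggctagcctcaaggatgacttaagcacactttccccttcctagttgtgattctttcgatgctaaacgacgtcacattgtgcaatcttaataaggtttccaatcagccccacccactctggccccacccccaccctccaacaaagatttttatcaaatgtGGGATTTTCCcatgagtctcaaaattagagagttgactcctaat
Nfkbia: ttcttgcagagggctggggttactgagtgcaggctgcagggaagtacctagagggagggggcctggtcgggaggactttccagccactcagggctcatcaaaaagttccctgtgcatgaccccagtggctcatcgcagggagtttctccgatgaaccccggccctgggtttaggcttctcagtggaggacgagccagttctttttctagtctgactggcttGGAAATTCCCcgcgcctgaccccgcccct
Tnfaip3: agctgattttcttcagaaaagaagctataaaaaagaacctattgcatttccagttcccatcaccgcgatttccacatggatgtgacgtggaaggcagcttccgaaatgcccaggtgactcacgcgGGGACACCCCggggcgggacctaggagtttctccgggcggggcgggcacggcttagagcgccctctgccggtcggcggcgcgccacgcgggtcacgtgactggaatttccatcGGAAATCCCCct

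The Cxcl1 match lay between 71 and 61 bases before the start, where 2 matches overlap by all but their outer bases. The Il6 match lay 44 to 35 bases and the Nfkbia match 29 to 20 bases before the start. Tnfaip3 held 2 matches, at 125 to 116 and at 12 to 3 bases. The letters TGANTCA, a form of the AP-1 site, were found in the windows of Il6, Lif and Tnfaip3 and in 6.75% of all windows, and overlapped no consensus match. The windows of Cxcl12, Lif and Ackr3 held no match to the consensus in these 250 bases. The window of the other Tnfaip3 start, which is not printed, held neither a consensus match nor TGANTCA. A match is a description of the letters and not a measured binding site.

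The arrays numbered 3 stood apart from the other 8 in every group, and this comes before every result below. Over all tested probe sets, 21.8% passed an adjusted p of 0.05 between number 3 and numbers 1 and 2, with 11.7% higher and 10.1% lower. The median log2 level of an array was 7.53 to 7.58. The brighter Htra2 probe set ran from 7.57 to 7.87 on KO arrays and from 8.83 to 9.32 on WT arrays. The dimmer one overlapped, at 8.14 to 8.53 on KO and 7.72 to 8.43 on WT arrays, so only the brighter served as a check of the labels. For the 3 WT rotenone arrays the genotype entry says knockout but every other label says wild type, and they were kept as WT. All 11 fibroblast markers lay past the 40th percentile of the tested probe sets, Col1a1 and Vim at 99.8 and 99.9, and their mean ran from 11.88 to 12.12 on arrays numbered 3 and from 11.86 to 12.16 on the others. Single fibroblast markers moved both ways with the number: Lum (0.97) and Pdgfra (0.76) were higher on number 3, and Col3a1 (-0.68), Fn1 (-0.40) and S100a4 (-0.24) lower. On other probe sets Col3a1 (-1.05), Fn1 (-1.33), Col1a1 (-0.32) and Col1a2 (-0.35) passed as lower and Pdgfra (0.34) as higher, while those of Vim and Pdgfrb did not pass. The brightest probe sets of Col1a1 (-0.14) and Col1a2 (-0.17) did not pass. Of 7 endothelial markers 1 lay past the 40th percentile.

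Markers of leukocytes moved with the replicate number. The mean level of the 17 leukocyte markers ran from 6.75 to 6.82 on arrays numbered 3 and from 6.28 to 6.49 on the others, and 11 of the 17 passed the test as higher, none as lower. Lyz2, Csf1r, Cd14, Fcer1g and Laptm5, 5 of the 17, lay past the 40th percentile, and the first 4 of these were among the 11. Lyz2, the lysozyme of macrophages and granulocytes, stood at 9.29 to 9.46 on arrays numbered 3 and at 6.99 to 7.28 on the others. Csf1r, a receptor of macrophages, was 0.26 higher at the 62.9 percentile on its brightest probe set. Its other probe sets did not pass, at 0.14 (limma adjusted p = 0.151) and -0.01 (adjusted p = 0.953). Laptm5 did not pass on its brightest probe set (-0.13). Its other probe sets gave 0.45 (limma adjusted p = 0.000361) and 0.19 (adjusted p = 0.0863). Among the 6 markers that did not pass on the brightest probe set, Ptprc (0.13, limma adjusted p = 0.187) and Itgam (0.07, adjusted p = 0.493) lay at the 12.5 and 7.47 percentile of all probe sets. Of 7 epithelial markers, Krt18 (1.03) and Krt8 (0.73) passed as higher. No detection calls were used, so whether a dim marker is present at all is unknown. In these bulk samples fewer cells of a type and less RNA per cell cannot be told apart. The part of other cells in the values by replicate number was not tested.

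The CXC chemokines Cxcl1 and Cxcl5, which attract neutrophils through the receptor Cxcr2, differed most between the numbers. Cxcl1 had a log2 level of 10.17 in KO rotenone, 10.36 in KO vehicle, 9.94 in WT rotenone and 10.49 in WT vehicle cells on the arrays numbered 3. The other arrays, 1 and 2, gave 5.82 and 6.05 in KO rotenone, 5.94 and 6.05 in KO vehicle, 6.29 and 6.21 in WT rotenone, and 6.37 and 6.29 in WT vehicle cells. The values did not overlap: the lowest array numbered 3 stood at 9.94 and the highest of the others at 6.37. Within a group, number 3 exceeded the mean of numbers 1 and 2 by 3.69 to 4.37, on average 17.3-fold. Arrays 1 and 2 of a group differed by at most 0.22.

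Cxcl5 showed the same split with a wider range among the low arrays. It stood at 10.27 in KO rotenone, 10.33 in KO vehicle, 9.87 in WT rotenone and 9.99 in WT vehicle cells on arrays numbered 3. Levels on numbers 1 and 2 were 4.74 and 4.76 in KO rotenone, 5.06 and 5.22 in KO vehicle, 6.55 and 6.39 in WT rotenone, and 7.07 and 6.82 in WT vehicle cells. All 4 arrays numbered 3 lay above all 8 others, and among those 8 the KO arrays lay below the WT arrays without overlap. The difference by number was 5.52 in KO rotenone and 5.19 in KO vehicle cells, against 3.40 in WT rotenone and 3.04 in WT vehicle cells, and averaged 19.5-fold. In the RefSeq gene table Cxcl1 and Cxcl5 lie on chromosome 5 with 4 protein-coding genes between them, the chemokine genes Ppbp, Pf4, Cxcl3 and Cxcl15.

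**Figure D1:**
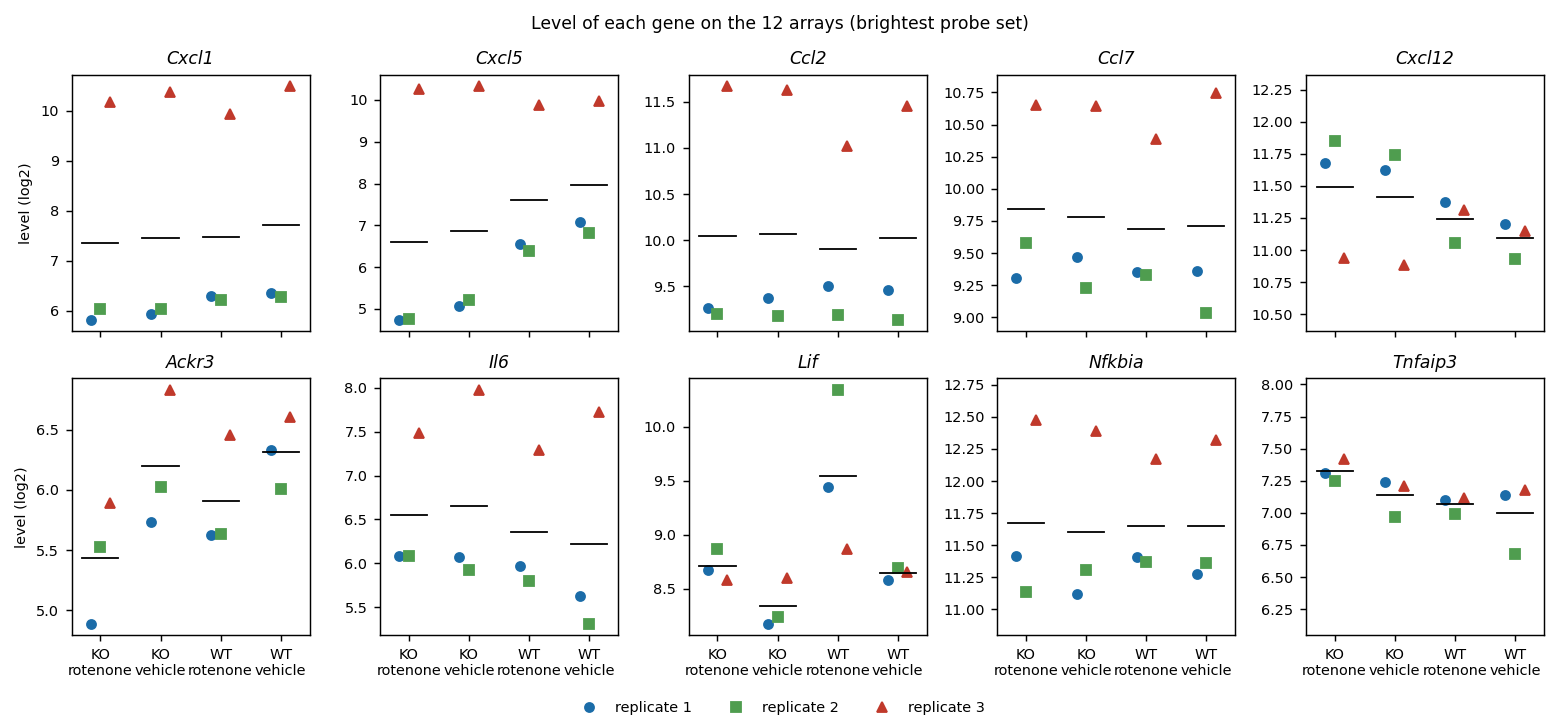
Log2 level of the brightest probe set of each gene on every array, by group, with KO left of WT and rotenone left of vehicle. Symbols mark the replicate number and bars the group mean (n = 3). The triangles, replicate 3, stand above all other symbols for Cxcl1, Cxcl5, Ccl2, Ccl7, Il6 and Nfkbia, and not for Cxcl12, Ackr3, Lif and Tnfaip3.

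The CC chemokines Ccl2 and Ccl7, which attract monocytes through Ccr2, are adjacent on chromosome 11 and had the same split by number. Ccl2 stood at 11.67 in KO rotenone, 11.63 in KO vehicle, 11.02 in WT rotenone and 11.46 in WT vehicle cells on arrays numbered 3. Numbers 1 and 2 gave 9.27 and 9.20 in KO rotenone, 9.38 and 9.18 in KO vehicle, 9.50 and 9.19 in WT rotenone, and 9.46 and 9.14 in WT vehicle cells. The 2 sets of arrays did not overlap, and the difference within a group was 1.68 to 2.43, on average 4.45-fold. Ccl7 stood at 10.66, 10.64, 10.39 and 10.75 on arrays numbered 3 of KO rotenone, KO vehicle, WT rotenone and WT vehicle cells. Its other arrays ran from 9.03 to 9.58, so they did not overlap either, and the difference by number averaged 2.43-fold.

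Cxcl12, the stromal chemokine that binds Cxcr4, followed another pattern, in which the genotypes went different ways. Its brighter probe set stood at 10.94 in KO rotenone, 10.88 in KO vehicle, 11.31 in WT rotenone and 11.15 in WT vehicle cells on arrays numbered 3. Its levels on numbers 1 and 2 were 11.68 and 11.85 in KO rotenone, 11.62 and 11.74 in KO vehicle, 11.37 and 11.05 in WT rotenone, and 11.20 and 10.93 in WT vehicle cells. In KO cells both arrays numbered 3 lay below all 4 others, whereas in WT cells they lay inside the range of the others. The dimmer probe set ran from 10.31 to 10.68 on arrays numbered 3 and from 10.18 to 10.77 on the others. In KO cells its arrays numbered 3 again lay below the others, at 10.31 and 10.45 against 10.58 to 10.77. In WT cells they lay above the others, at 10.60 and 10.68 against 10.18 to 10.41, so the probe sets differed there.

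Ackr3, an atypical receptor that binds Cxcl12 and takes it up without G-protein signalling, lay at the 21.4 percentile of all probe sets by its mean level. On arrays numbered 3 it stood at 5.90 in KO rotenone, 6.83 in KO vehicle, 6.46 in WT rotenone and 6.61 in WT vehicle cells. The other arrays gave 4.89 and 5.53 in KO rotenone, 5.74 and 6.02 in KO vehicle, 5.63 and 5.63 in WT rotenone, and 6.33 and 6.01 in WT vehicle cells. Number 3 was the highest array within each of the 4 groups, by 0.44 to 0.95 over the mean of the others, but the lowest array numbered 3 lay below 3 of the other 8. Affymetrix marks this probe set as one that may match more than a single transcript.

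Il6, an inflammatory cytokine of fibroblasts and macrophages, lay at the 29.4 percentile by its mean level and was higher on number 3. The arrays numbered 3 gave 7.48 in KO rotenone, 7.97 in KO vehicle, 7.29 in WT rotenone and 7.73 in WT vehicle cells. Levels on numbers 1 and 2 were 6.08 and 6.08 in KO rotenone, 6.07 and 5.93 in KO vehicle, 5.97 and 5.80 in WT rotenone, and 5.63 and 5.32 in WT vehicle cells. There was no overlap, and the difference by number averaged 3.38-fold. Lif, a cytokine that shares the receptor chain Il6st with Il6, did not follow this split.

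Lif had its highest levels on WT rotenone arrays. Its brighter probe set stood at 8.68, 8.87 and 8.58 on the KO rotenone arrays numbered 1, 2 and 3, and at 8.18, 8.24 and 8.60 on the KO vehicle arrays. It stood at 9.44, 10.34 and 8.87 on the WT rotenone arrays, and at 8.58, 8.70 and 8.65 on the WT vehicle arrays. The array highest of all was WT rotenone 2, and number 3 differed from the mean of numbers 1 and 2 by -1.03 to 0.40. The dimmer probe set ran only from 6.09 to 6.96, with the same array highest.

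Nfkbia encodes the inhibitor that traps NF-kB in the cytoplasm and is resynthesised soon after activation. Its brightest probe set stood at 12.48 in KO rotenone, 12.39 in KO vehicle, 12.17 in WT rotenone and 12.32 in WT vehicle cells on arrays numbered 3, and at 11.12 to 11.42 on the other 8. Its 4 probe sets all had higher means on number 3, by 1.04 (2.06-fold) for the brightest, 1.54 and 1.60 for the next ones and 0.71 for the dimmest, so the size depended on the probe set. Tnfaip3, or A20, which edits ubiquitin chains on the signalling complexes upstream of NF-kB, stood at 7.42 in KO rotenone, 7.21 in KO vehicle, 7.12 in WT rotenone and 7.17 in WT vehicle cells on arrays numbered 3. Its other 8 arrays ran from 6.68 to 7.31 and overlapped with these. The difference by number was 0.07 to 0.27.

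**Figure D2:**
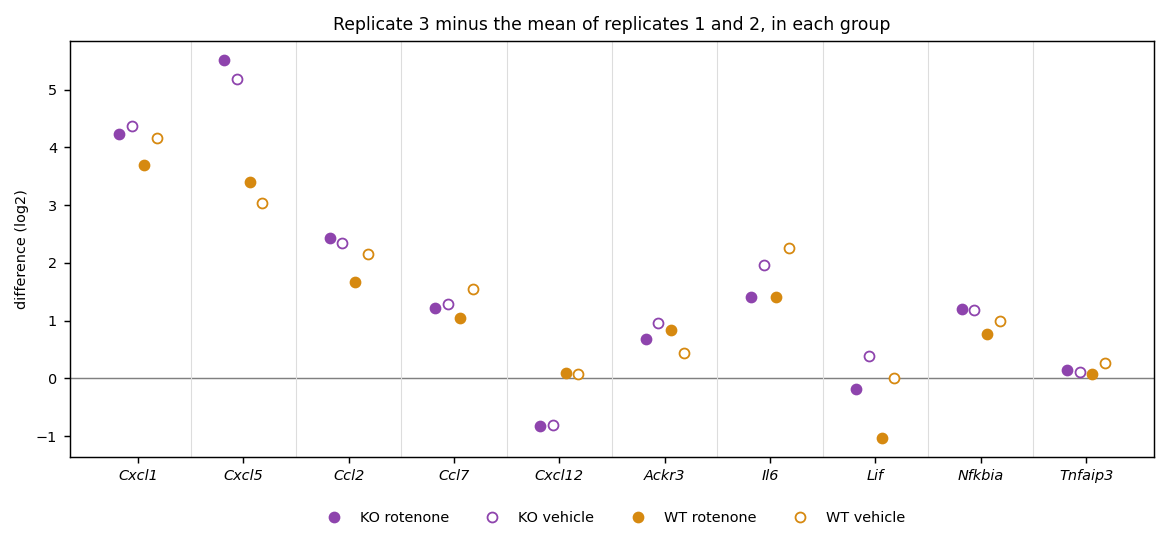
Replicate 3 minus the mean of replicates 1 and 2 in each group, on the log2 scale, for the brightest probe set of each gene. Filled symbols are rotenone and open symbols vehicle groups, KO is purple and WT orange. Cxcl5 ranges from 3.04 to 5.52 with KO above WT, and Cxcl12 lies at -0.83 and -0.80 in KO and at 0.10 and 0.08 in WT cells.

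Counted over the members, all 4 arrays numbered 3 lay above all 8 others for 9 of 15 probe sets and for 6 of 10 genes. The 6 genes were Cxcl1, Cxcl5, Ccl2, Ccl7, Il6 and Nfkbia. Over all tested probe sets the share was 6.57%, and since the members were proposed with this contrast known nothing is read from that difference. Levels of different probe sets are not comparable on these arrays, so no order of the genes is drawn.

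After 4 h of rotenone Ackr3 was lower and Lif higher when the replicate number was a block, and with all arrays no other member passed. Ackr3 was lower in rotenone than in vehicle in 6 of 6 same-numbered pairs, by -0.85, -0.50 and -0.94 in KO cells and by -0.71, -0.38 and -0.15 in WT cells. The mean over genotypes was -0.59 (SE 0.23), 1.50-fold lower. It did not pass in the fit without a block (limma adjusted p = 0.547) and passed with the replicate number as a block (SE 0.11, adjusted p = 0.00780), a fit in which 2.46% of all probe sets passed, against 0.217% without the block. In KO cells alone the difference was -0.76 (blocked adjusted p = 0.0494, with 0.301% of all probe sets passing and 0.00884% without the block), and in WT cells alone -0.41 (0.345, with 0.628% and 0.0133% passing). Whether the genotypes differ in this was tested by the interaction, which was -0.35 (SE 0.21, blocked adjusted p = 1.0).

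Lif was higher in rotenone in 5 of 6 pairs. Same-numbered differences were 0.50, 0.63 and -0.02 in KO cells and 0.86, 1.64 and 0.21 in WT cells, so the pairs numbered 3 showed the smallest difference in both genotypes. The mean over genotypes was 0.64, or 1.56-fold (limma adjusted p = 0.351 without and 0.0473 with the replicate block). On numbers 1 and 2 alone it was 0.91 (SE 0.15, adjusted p = 0.00357 without a block and 4.67e-07 with it), where 2.24% and 4.66% of all probe sets passed. Without number 1 or number 2 the blocked adjusted p of Lif was 0.442 and 0.317, and that of Ackr3 was 0.102 and 0.109, so neither call held without number 1 or without number 2. The dimmer Lif probe set gave 0.21 (blocked adjusted p = 0.384). The rotenone effect on Lif in pairs numbered 3 minus that in the others was -0.81 (SE 0.26, adjusted p = 0.998), in a fit where 0.00442% of all probe sets passed. Of the fits that left out 1 array, it passed in the one without the KO rotenone array numbered 3, at -1.23 (adjusted p = 0.0252), where 1.48% of all probe sets passed.

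Cxcl5 was lower in rotenone in 6 of 6 pairs. Same-numbered differences were -0.32, -0.45 and -0.06 in KO cells and -0.52, -0.43 and -0.11 in WT cells. With all arrays the mean was -0.32 and did not pass (limma blocked adjusted p = 0.642, 95% interval -0.90 to 0.27). With only numbers 1 and 2 it was -0.43, or 1.35-fold lower (adjusted p = 0.0212 without and 0.00230 with the block). Cxcl1 differed by -0.17 (blocked 95% interval -0.36 to 0.02), and its pair differences ran from -0.55 to 0.00.

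For the remaining members no difference passed with all arrays, without or with the block. Il6 differed by 0.01 on average (blocked 95% interval -0.22 to 0.25), with 0.01, 0.15 and -0.49 in KO and 0.35, 0.49 and -0.44 in WT pairs. Its pairs numbered 3 thus lay below the others in both genotypes, and the difference of the rotenone effect between number 3 and the rest was -0.71 (SE 0.15, limma adjusted p = 0.315). Cxcl12 was higher in rotenone in 6 of 6 pairs, but only by 0.05 to 0.17 (mean 0.11, blocked adjusted p = 0.746). Blocked intervals ran from -0.27 to 0.14 for Ccl2, from -0.17 to 0.21 for Ccl7, from -0.14 to 0.21 for Nfkbia and from -0.02 to 0.27 for Tnfaip3.

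**Figure D3:**
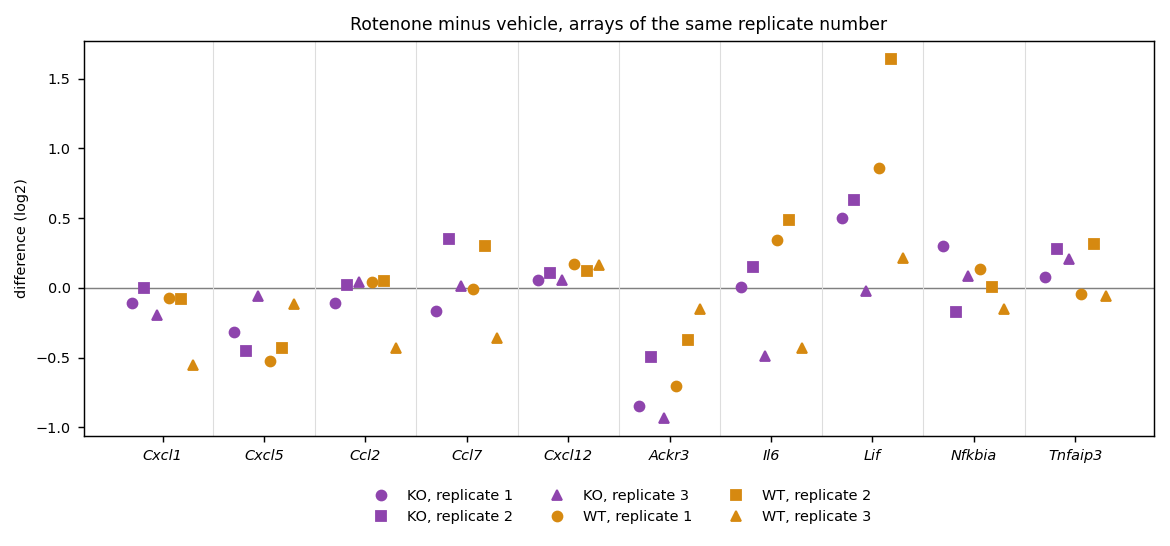
Rotenone minus vehicle for arrays of the same replicate number, on the log2 scale, 6 points per gene. KO pairs are purple and WT pairs orange, and symbols mark the number. All 6 Ackr3 and all 6 Cxcl5 points lie below 0, and the Lif points reach 1.64 in the WT pair numbered 2.

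Between KO and WT cells no member passed the test when all arrays were used, in rotenone, in vehicle or over both, without or with the replicate block. Without the block 0.00442% of all probe sets passed in rotenone, as many in vehicle and 0.00884% over both; with it, 0.0398%, 0.0177% and 0.552% passed. For Cxcl5 KO minus WT was -1.01 in rotenone and -1.09 in vehicle cells, each with an SE of 1.71 without and 0.39 with the block.

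The genotype difference of Cxcl5 had opposite signs on different replicate numbers. Same-numbered KO minus WT differences were -1.81, -1.63 and 0.40 in rotenone and -2.01, -1.60 and 0.34 in vehicle. Within numbers 1 and 2, Cxcl5 was 3.29-fold lower in KO than in WT cells in rotenone (-1.72, SE 0.13, limma adjusted p = 1.79e-05) and 3.50-fold lower in vehicle (-1.81, SE 0.13, adjusted p = 1.05e-05). In these fits 0.570% and 0.398% of all probe sets passed. The KO levels behind these folds, 4.74 to 5.22, were low on a scale from 3.19 to 14.59. Without detection calls, whether they lay near background is unknown. The difference on number 3 minus that on numbers 1 and 2, a test added after the values were seen, was 2.13 (SE 0.17, 95% interval 1.79 to 2.48, adjusted p = 1.37e-06), where 1.54% of all probe sets passed. Leaving out any array kept it between 1.95 and 2.31, past the threshold each time. Number 3 holds 1 array per group, so its own genotype difference has no replicate.

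Cxcl12 showed the mirror of this. KO minus WT was 0.31, 0.80 and -0.37 in rotenone and 0.42, 0.81 and -0.26 in vehicle for its brighter probe set. With only numbers 1 and 2 it was higher in KO cells by 0.59 over both treatments (1.50-fold, limma adjusted p = 0.00576, where 1.84% of all probe sets passed). The change of the genotype difference with the number was -0.90 (SE 0.16, adjusted p = 0.00446), and without the KO rotenone array numbered 3 it was -0.89 and no longer passed (adjusted p = 0.0570, where 0.438% of all probe sets passed). The dimmer probe set gave -0.61 (adjusted p = 0.0419). Without the WT vehicle array numbered 3, 6.21% of all probe sets passed this test of change, among them Lif (1.13, adjusted p = 0.0153), Ccl2 (0.72, adjusted p = 0.0174) and Cxcl1 (0.61, adjusted p = 0.0406), none of which passed with every array kept.

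**Figure D4:**
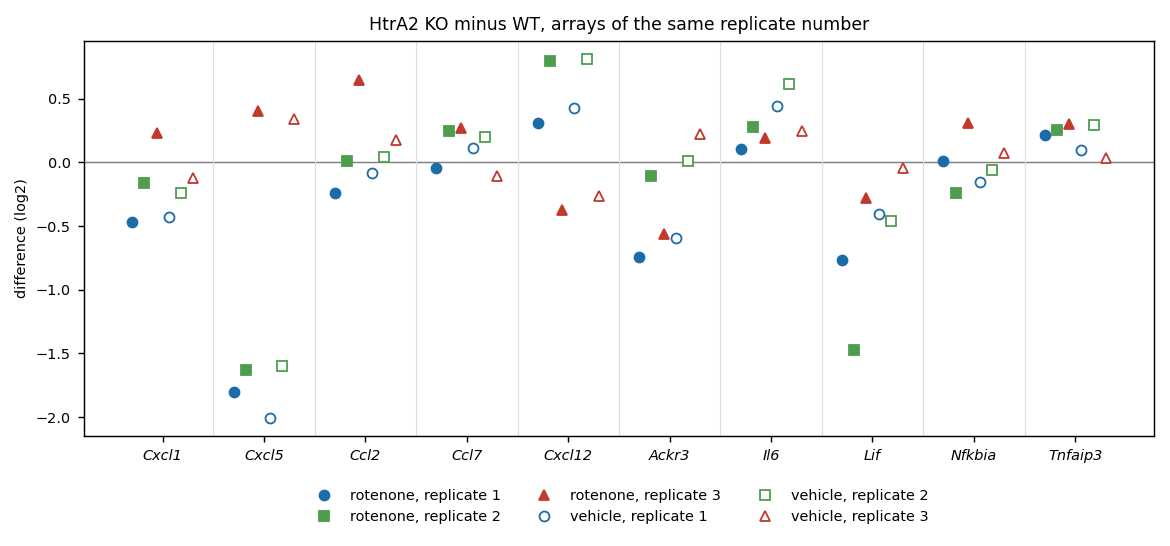
HtrA2 KO minus WT for arrays of the same replicate number, on the log2 scale, 6 points per gene. Filled symbols are rotenone and open symbols vehicle, and colour and shape mark the number. Cxcl5 lies between -2.01 and -1.60 on numbers 1 and 2 and at 0.40 and 0.34 on number 3, and Cxcl12 has the opposite signs.

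By its brighter probe set Lif was lower in KO than in WT cells in 6 of 6 pairs. The differences were -0.76, -1.47 and -0.28 in rotenone and -0.40, -0.46 and -0.05 in vehicle. With all arrays the difference did not pass in rotenone (-0.84, limma blocked adjusted p = 0.199) or vehicle (-0.30). On numbers 1 and 2 alone it was -1.12 in rotenone, 2.17-fold lower (adjusted p = 0.0230). The dimmer Lif probe set did not share this direction and was higher in KO cells in 3 of 6 pairs. Its differences were -0.07, -0.64 and 0.28 in rotenone and 0.08, 0.07 and -0.06 in vehicle. Whether rotenone acted differently on Lif in the genotypes is the interaction, which was -0.54 (SE 0.39, adjusted p = 1.0). No probe set of the 22626 passed the interaction in limma, without or with the block, and 82 and 295 had an unadjusted p under 0.05.

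Il6 was higher in KO cells in 6 of 6 pairs, by 0.11 to 0.61, and Tnfaip3 in 6 of 6, by 0.04 to 0.30. The means over treatments were 0.31 (limma blocked adjusted p = 0.258) for Il6 and 0.20 (0.245) for Tnfaip3, neither past the threshold. On numbers 1 and 2 alone Il6 in vehicle was 0.53 higher in KO cells, which passed with the block (adjusted p = 0.0248, where 1.05% of all probe sets passed) and not without it (0.180). On the same arrays Cxcl1 was 0.32 lower in KO cells over both treatments (difference -0.32, adjusted p = 0.0328 with the block, where 3.43% of all probe sets passed, and 0.0941 without it). Ackr3 differed by -0.47 in rotenone (blocked 95% interval -0.79 to -0.15, adjusted p = 0.263). Ccl2, Ccl7 and Nfkbia had mean differences of 0.09, 0.11 and -0.01, with blocked 95% intervals of -0.11 to 0.29, -0.08 to 0.30 and -0.18 to 0.16.

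Other genes of the same pathways were read from 7 lists with 145 entries, of which 127 were measured. On arrays numbered 3, 27 of the 127 passed as higher and 22 as lower, and over all genes 1573 of 12393 passed as higher and 1263 as lower. Among 26 other chemokines 8 were higher and 5 lower, with a median difference of -0.03 against -0.04 for all genes. Cxcl2, another neutrophil chemokine and the neighbour of Cxcl1 in the gene table, was 2.23 higher, at 7.21 to 7.79 on arrays numbered 3 and 4.96 to 5.48 on the others. Ppbp was 1.48 and Ccl20, a ligand of Ccr6, 0.66 higher, while Cxcl14 was lower (-0.79).

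Among receptors, upstream cytokines and the Il6 family, more genes passed as lower than as higher. Of 19 chemokine receptors, Cxcr4 was higher (0.36) and Cxcr6 (-0.32) and Ccr4 (-0.32) were lower. Of 13 genes of the Il6 cytokine family and its JAK-STAT3 path, Il11 (-0.64), Tyk2 (-0.28) and Il6ra (-0.23) were lower and none higher. Of 17 upstream cytokines and receptors, 1 was higher and 5 lower, among them the receptor antagonist Il1rn (-0.53), the receptors Il1r1 (-0.32) and Tlr4 (-0.28), Il33 (-0.24) and Tnfrsf1a (-0.22). The higher one was Csf3 (0.21), a growth factor of granulocytes.

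NF-kB's own components and targets were divided. Of 18 subunits and activating kinases, Tbk1 (0.59) and Traf5 (0.27) were higher and Myd88 (-0.25) lower. Of 13 other genes listed as feedback inhibitors, Nfkbiz, an atypical nuclear member of the inhibitor family, was 1.40 higher. Zc3h12a, an RNase that degrades Il6 mRNA, was 0.58 and Bcl3 0.46 higher, and Rnf11 (-0.57) and Zfp36 (-0.43) were lower. Of 21 other target genes 12 were higher and 4 lower, with a median of 0.28. The matrix proteases Mmp3 (4.36) and Mmp13 (1.86) and the acute-phase proteins Saa3 (0.97) and Ptx3 (0.90) were the highest, and Myc (-0.88) and Ptgs2 (-0.84), the inducible cyclooxygenase, the lowest of those that passed. Csf3, Tnfrsf1a, Zfp36, Myc and Ptgs2 were named after their values were seen. The lists were drawn up with earlier results known, so their counts are not independent of these data.

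**Figure D5:**
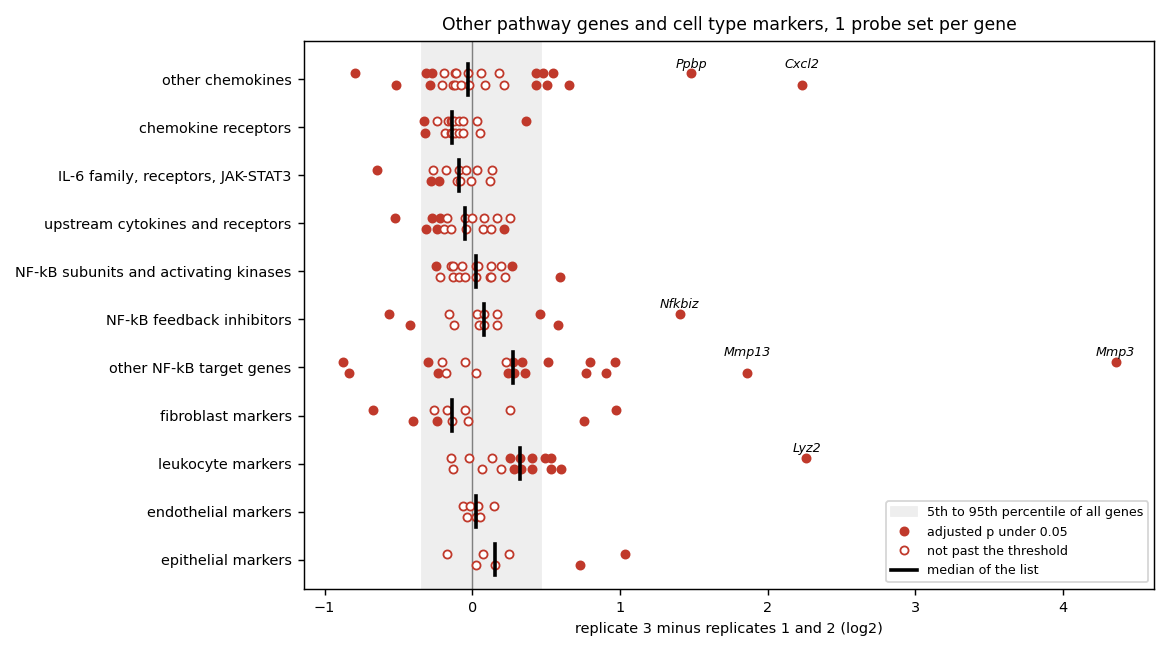
Replicate 3 minus replicates 1 and 2 (log2) for every measured gene of the 7 pathway lists and the 4 marker lists, 1 point per gene. Filled points passed an adjusted p of 0.05, black bars are list medians and the grey band spans the 5th to 95th percentile of all genes (-0.34 to 0.47). Mmp3 at 4.36 and Lyz2 at 2.26 lie farthest right in their lists.

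In rotenone, 1 of the 127 pathway genes passed with the block, Tab2, an adaptor of the kinase that activates the NF-kB pathway (0.39 higher, limma adjusted p = 0.0383, in the fit where 2.46% of all probe sets passed), and none without it. Between the genotypes, 1 passed with the block, Cxcl14 (-0.74 over both treatments, adjusted p = 0.0444, where 0.552% of all probe sets passed). For the change of the genotype difference with the replicate number, 6 passed, all higher, against 0.491% higher and 1.05% lower over all probe sets. The largest of these beside Ptx3 (1.72) was Ppbp, which lies next to Cxcl5 (1.69, SE 0.16, adjusted p = 2.18e-05). Ppbp stood at 7.45 and 7.64 in KO rotenone and 7.48 and 7.71 in KO vehicle, against 8.41 and 8.52 in WT rotenone and 8.96 and 8.70 in WT vehicle cells on numbers 1 and 2. On number 3 it stood at 9.78 and 10.02 in KO, against 8.98 and 9.58 in WT cells, rotenone before vehicle. Like Cxcl5, it was lower in KO cells on numbers 1 and 2 and higher on number 3.

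Genes with the most similar pattern over the 12 arrays are given as a description. All 12 share the split by number, so r was also taken after subtracting the mean of each replicate number from each level. After this, Pearson's r was highest with Il1rn for Cxcl5 (0.980), Parl for Cxcl1 (0.960), Fkbp2 for Ccl2 (0.957), Stx8 for Ccl7 (0.933) and Gpc4 for Cxcl12 (0.964). It was highest with Hoxb4 for Il6 (0.901), Wdr4 for Lif (0.976), Chic1 for Nfkbia (0.899), Vegfb for Tnfaip3 (0.939) and Asb8 for Ackr3 (0.942). Among the members themselves Cxcl5 and Cxcl12 ran against each other (-0.89) and Cxcl1 and Cxcl5 together (0.76). On the levels as they stand, the genes most like Cxcl1 and Ccl2 were the imprinted growth factor Igf2 (0.997 and 0.994), and the one most like Nfkbia was the replication helicase subunit Mcm2 (0.985).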

How the data were processed

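The authors deposited log2 values. Per the submitters' processing notes they used RMA, version not given in the sources used here. It corrects background, brings the distributions of arrays together and summarises probes into probe sets, which compresses differences near background. Values ran from 3.19 to 14.59, and no detection calls or scanner signals were used, so the number of arrays limits the precision. Of 22690 probe sets 64 controls were left out. The platform annotation gave 1 symbol to 20380 of the rest, several to 691 and none to 1555, and no probe set with several was named.

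Tests were two-sided and used lmFit and eBayes of limma 3.58.1 under R 4.3.3, with 4 group means over 12 arrays and Benjamini-Hochberg adjustment over 22626 probe sets, threshold 0.05. Every adjusted p in the text comes from a limma fit with this adjustment. Where the text says so, a fit added the replicate block, a term for number 3 or a term for a difference that changes with the number, or used fewer arrays. The fit was tested on simulated data with independent noise for rotenone minus vehicle over both genotypes only, without and with the block. The other comparisons, among them those by replicate number, were not simulated. Whether replicate numbers pair arrays was checked by correlating deviations from group means. For the 18 pairs of arrays with the same number r lay between 0.289 and 0.829, all above 0.1. Same-numbered arrays were treated as pairs, a pairing that the labels do not give. The arrays numbered 3 stood apart in every group and so shifted every group mean. Deviations of the other arrays share that shift, which by itself favours a positive r. The check therefore cannot show whether the other numbers pair across groups. Calls made only with the replicate number as a block, and counts over same-numbered pairs, rest on this assumed pairing. Genotype comparisons over both treatments, and their change with the number, counted the rotenone and vehicle arrays of a number as separate arrays. If those arrays share cells, the p-values of these comparisons are too small. Values from fits with this block are given where they change a call. Alternatives were a block, leaving out arrays or a number, quantile normalization again, removal of probe sets below the 40th percentile, and the mean of a gene's probe sets.

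The members and all lists were chosen with earlier results of these data known. Genes outside the members were named by rule: up to 4 per list with the smallest adjusted p in a treatment or genotype comparison, up to 4 with the largest difference by number, and the nearest gene in pattern. Promoter sequences and gene positions are RefSeq's, assembly GRCm38.p6.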

Additional observations from a re-analysis of the deposited data

Results flagged for a closer look

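The KO minus WT difference changed with the replicate number for 2 members, by limma's test of that change with the number as a block. Over all tested probe sets 1.54% passed this test. For Cxcl5 the difference on number 3 minus that on numbers 1 and 2 was 2.13 on the log2 scale (adjusted p = 1.37e-06). For Cxcl12 it was -0.90 (adjusted p = 0.00446) on the brighter and -0.61 (adjusted p = 0.0419) on the dimmer probe set. Without the KO rotenone array numbered 3 the brighter Cxcl12 probe set gave -0.89 and no longer passed. The contrast was added after the values were seen and is not independent of the choice of the genes. Number 3 has 1 array per group, so culture, embryo and array cannot be told apart there.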

How the results depend on the processing

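Counts of called probe sets depended on the block and on which replicate number was left out. For rotenone minus vehicle over both genotypes, 49 passed without a block, 557 with the replicate block, 65 and 44 with the block without number 1 or 2, 1054 with the block on numbers 1 and 2 and 506 on numbers 1 and 2 without it. For rotenone in KO cells the count was 2, against 68 with the block, 5 and 0 with the block without number 1 or 2, 343 without number 3 and 85 on numbers 1 and 2 without a block. In WT cells it was 3, against 142, 6, 0, 370 and 122 in the same order, and 5 without dim probe sets. For KO minus WT in rotenone it was 1, against 9 with the block, 0 and 347 with the block without number 1 or 3, and 129 on numbers 1 and 2 alone. In vehicle it was 1, against 4 with the block, 237 with the block without number 3, and 90 on numbers 1 and 2 alone. Over both treatments it was 2, against 125 with the block, 1 and 776 with the block without number 2 or 3, and 416 on numbers 1 and 2 alone. The 1 probe set whose rotenone effect differed by number was 0 after quantile normalization. Leaving out single arrays moved these counts within 7 to 68 (rotenone), 0 to 5 (in KO), 0 to 7 (in WT), 0 to 1 (KO minus WT in rotenone), 1 to 2 (in vehicle), 2 to 13 (both treatments), 0 to 335 (rotenone by number), 99 to 1404 (genotype by number), 3309 to 5021 (number 3) and 0 to 0 (interaction). The cause was not tested. With all arrays the block changed the calls of Ackr3 (over both genotypes and in KO) and Lif (over both genotypes) and no other call of a member.

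Over 1830 alternative values of the members no called value changed sign. A call was gained in 35 and lost in 1, the genotype-by-number change of Cxcl12, and 234 uncalled values changed sign. Ackr3 and Il6 have no value after removal of dim probe sets.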

Other observations

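Some other genes of inflammatory signalling also had a KO minus WT difference that changed with the replicate number, upward as for Cxcl5. Their levels by number did not all follow Cxcl5. Il1rn (-0.53) and Cxcl14 (-0.79) were lower on number 3, whereas Ptx3 (0.90), Mmp3 (4.36) and Ccl9 (0.50) were higher, as Cxcl5 was. Il1rn, the antagonist of the Il1 receptor, stood at 8.20 and 8.01 in KO rotenone and 8.21 and 8.09 in KO vehicle cells, against 8.87 and 8.65 in WT rotenone and 9.04 and 8.80 in WT vehicle cells on numbers 1 and 2. On number 3 it lay between 7.84 and 8.02 in all groups, and the change was 0.79 (limma adjusted p = 0.00554). Ptx3, a secreted pattern-recognition protein, differed by -1.64 and -1.21 in rotenone and by -1.65 and -0.80 in vehicle cells on numbers 1 and 2, and by 0.50 and 0.29 on number 3. Its change was 1.72 (adjusted p = 0.00124). Cxcl14 differed by -1.25 and -0.79 in rotenone and by -1.30 and -0.90 in vehicle cells on numbers 1 and 2, and by 0.00 and -0.21 on number 3 (change 0.96, adjusted p = 0.0127). Mmp3 (1.01) and Ccl9 (0.65) passed as well. Cell type markers whose genotype difference changed with the number, up or down, were the fibroblast marker Lum (0.94), the endothelial marker Emcn (-1.18) and the epithelial marker Krt18 (-1.01). Their part in the member values was not tested.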
